A study of Rattus norvegicus with 26 samples.

Results

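Rat fetal liver cells carrying both sort labels, LAP+/OC2+, were compared with fetal cells sorted on LAP+ alone, in nuclear RNA. The 2 groups hold 4 libraries each, 8 of the 26 libraries in the series, and were chosen by their sample titles. Of 32552 features counted, 32517 lie outside the mitochondrial genome and were kept. Both groups are labelled fetal hepatocytes from before transplantation, were immunopurified, and went through the same RNA and library kits. The labels do not spell out LAP or OC2, and give no strain, fetal age, genotype or treatment. The other libraries from before transplantation, 4 of LAP+/OC2- fetal cells and 4 of adult hepatocytes, give reference levels. They were also part of the edgeR fit, where they share in the low-count filter, the scaling and the estimate of spread. The labels call the 4 libraries of a group biological replicates without saying that they came from separate animals or litters. P-values therefore measure the spread between libraries only. For edgeR calls this spread comes from all 16 libraries from before transplantation, and permutation tests use the 8 compared.

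Fetal liver is a mixed organ. Hepatoblasts and young hepatocytes make the abundant secreted plasma proteins, among them albumin, alpha-fetoprotein, transferrin and the apolipoproteins. Around them, the fetal liver is a site of blood formation and holds red cell precursors, granulocyte and mast cell precursors, megakaryocytes and macrophages. A surface sort can therefore enrich or deplete either kind of cell, and in bulk RNA fewer cells of a type and less RNA per cell cannot be told apart. The deposited features carry identifiers without gene names, and the RefSeq table used here (GRCr8) paired 0 of them with a symbol. The labelled cell type could therefore not be checked against hepatocyte or blood cell markers, and features are given by chromosome and position as deposited. Their genome build is not stated in any source used here.

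The LAP+/OC2+ libraries stood apart before any feature was tested. Mitochondrial features took 78.6%, 73.7%, 57.6% and 38.9% of all their counts in libraries 1 to 4, against 4.11% to 6.42% in the LAP+ libraries. That left 1917734 to 5045098 nuclear counts per LAP+/OC2+ library and 14425753 to 14925682 per LAP+ library. LAP+/OC2- and adult libraries were near the LAP+ level, at means of 4.94% and 7.73%. Levels here are nuclear counts scaled to a fixed library size (CPM), so the mitochondrial share itself does not enter them. Its part in the nuclear differences, with that of RNA quality, was not tested. Without the 2 LAP+/OC2+ libraries above 70%, an alternative chosen after the data were seen, 4546 features were called higher and 4955 lower, against 4704 and 4969 with all 8 libraries.

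The nuclear RNA of LAP+/OC2+ cells was spread over more features than that of LAP+ cells. The 20 most abundant features of each library held 16.9%, 19.5%, 21.8% and 21.2% of LAP+/OC2+ nuclear counts and 37.7%, 34.0%, 37.6% and 36.4% of LAP+ ones. The groups did not overlap, at 19.9% ± 2.21 against 36.4% ± 1.74 (SD, n = 4 each). At an equal nuclear depth of 1917734 counts, 17168, 16472, 16340 and 15157 features were detected in LAP+/OC2+ cells and 14421, 14421, 14107 and 14470 in LAP+ cells. Each LAP+/OC2+ library thus had more detected features than each LAP+ library. Both differences reached an exact permutation p of 0.029 (2-sided, 0.029 after Benjamini-Hochberg adjustment over 5 measures), the smallest that 4 against 4 libraries can give.

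The features that dominate adult hepatocytes were scarce in LAP+/OC2+ cells. The 50 most abundant nuclear features of the adult libraries held 5.95%, 4.77%, 2.99% and 1.73% of LAP+/OC2+ nuclear counts. In LAP+ cells they held 34.4%, 26.3%, 31.0% and 32.1%. The group means were 3.86% ± 1.87 and 31.0% ± 3.44 (SD, n = 4 each, exact permutation p = 0.029, adjusted 0.029). LAP+/OC2- cells stood at 29.4% and the adult cells themselves at 41.7%, so among the 3 fetal sorts the LAP+/OC2+ libraries were the low ones. Features shorter than 200 nt held 0.221% ± 0.047 in LAP+/OC2+ libraries and 0.430% ± 0.030 in LAP+ libraries. For 1-exon features of at least 200 nt the order was opposite, 2.21% ± 0.25 against 1.24% ± 0.10 (SD, n = 4 each, exact permutation p = 0.029, adjusted 0.029, for both).

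**Figure D1:**
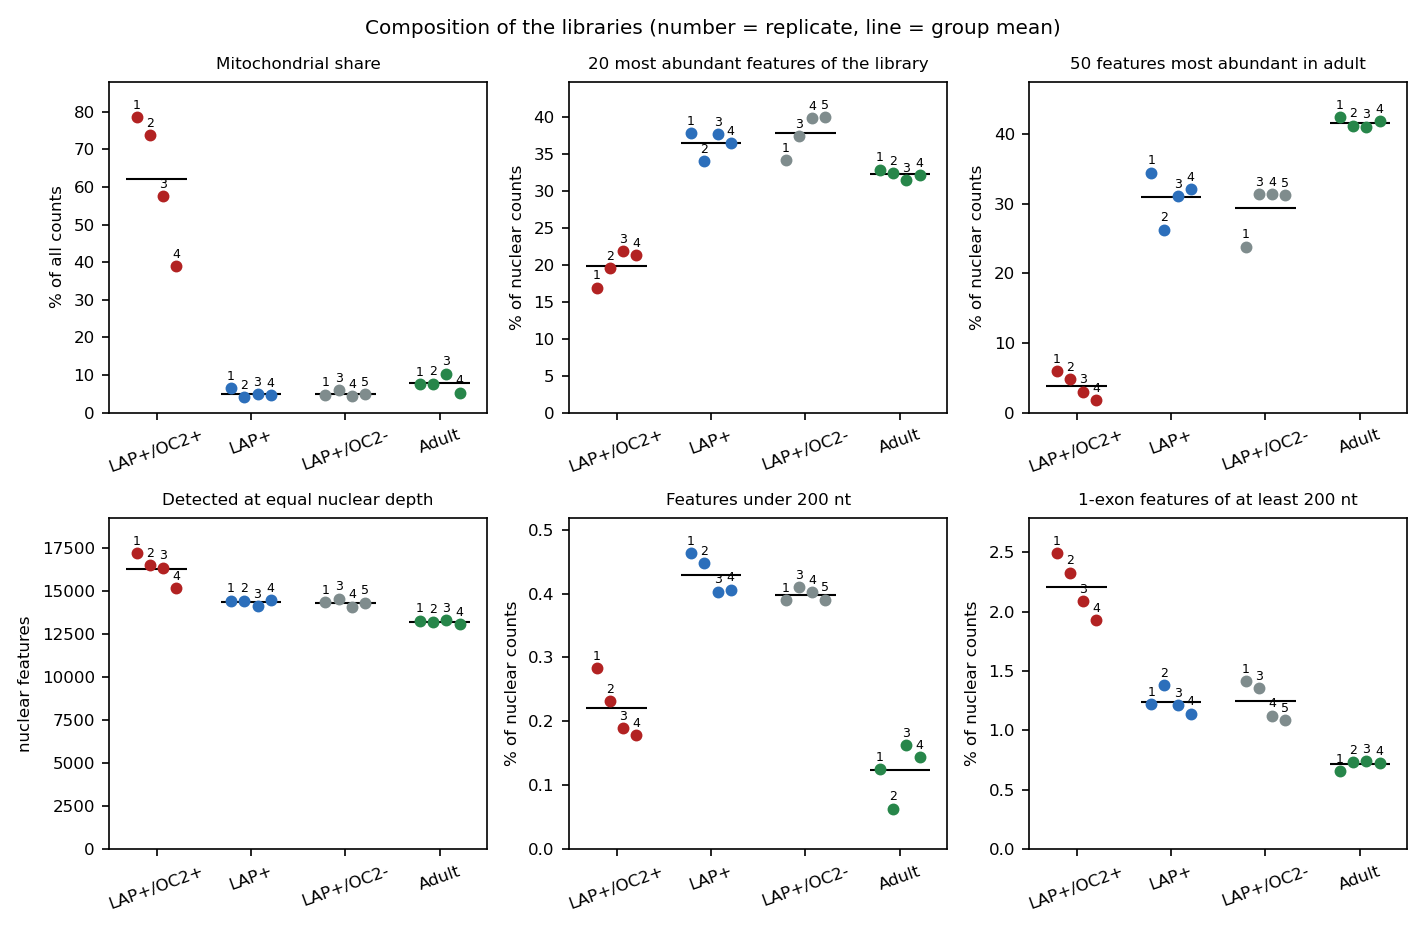
Library measures of the LAP+/OC2+ and LAP+ libraries, with LAP+/OC2- and adult libraries for reference: each numbered point is 1 library, lines are group means, and the vertical axes give percent of nuclear counts, number of detected features, or percent of all counts for the mitochondrial panel. In each panel the 4 LAP+/OC2+ libraries lie on 1 side of all 4 LAP+ libraries, as for the adult features at 1.73% to 5.95% against 26.3% to 34.4%.

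Most nuclear features differed between the groups. Of 14323 tested, 4704 (32.8%) were called higher in LAP+/OC2+ cells and 4969 (34.7%) lower, 67.5% in all. Calls used edgeR's quasi-likelihood test, with Benjamini-Hochberg adjusted p below 0.05. Changes of at least 2-fold made up 3473 (24.2%) and 3533 (24.7%). The median log2 difference over all tested features was -0.05. With RLE size factors that median moved to 0.06, and 5084 features were higher and 4582 lower, so which direction has more calls depends on the scaling. The 2 groups did not overlap in 56.7% of tested features, with LAP+/OC2+ libraries above in 27.3% and below in 29.4%. Among the called ones this held for 3851 of the higher and 4130 of the lower features.

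Direction followed abundance in the reference libraries. Of the 81 tested features above 1000 CPM in LAP+/OC2- cells, 69 were lower and 6 higher in LAP+/OC2+ than in LAP+ cells, with a median log2 difference of -2.93. Between 100 and 1000 CPM, 744 of 1146 were lower and 221 higher (median -0.94). From 10 to 100 CPM the counts were 2734 lower and 2139 higher of 6553 (median -0.16), near the -0.05 of all features. Features at 1 to 10 CPM were even, with 1346 higher and 1309 lower of 4630, although RLE size factors gave 1466 and 1172. In the lowest class, under 1 CPM, 992 of 1913 were higher and 113 lower, but many of these could pass the low-count filter only through the LAP+/OC2+ libraries, so this count is a description.

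**Figure D2:**
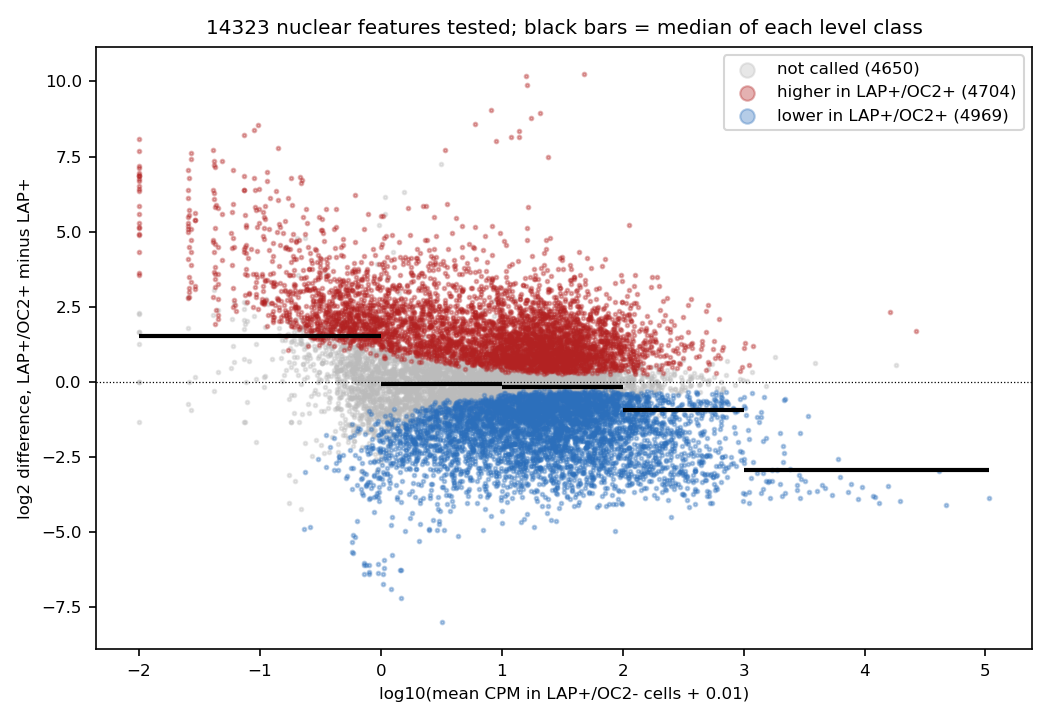
Log2 difference between LAP+/OC2+ and LAP+ cells (vertical axis) against the mean level in LAP+/OC2- cells (horizontal axis, log10 of CPM + 0.01) for the 14323 tested features, coloured by call, with a bar at the median of each level class. Features above 1000 CPM lie mostly below 0, with a median of -2.93, and those from 1 to 10 CPM are centred near 0.

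Lists of features that are abundant in liver cells outside the comparison gave the same direction. Of the 500 features most abundant in adult hepatocytes, 395 were lower and 49 higher (median -2.02), against 34.7% and 32.8% of all tested features. Of the 50 most abundant, 41 were lower (median -3.001). In transplanted animals, laser-captured host liver gave 43 lower and 3 higher among 49 tested of its 50 most abundant features (median -3.30). Features higher in adult than in LAP+/OC2- cells by at least 2-fold counted 1179 lower and 460 higher of 2479 (median -0.67). Those higher in LAP+/OC2- than in adult cells counted 798 lower and 1181 higher of 2928 (median 0.34). The 8916 features less than 2-fold or not significantly apart between those reference groups were even, with 2992 lower and 3063 higher, or 2719 and 3329 with RLE size factors.

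The largest fall in share of nuclear counts lay on chromosome 14, between 19176277 and 19191863 (15 exons). This feature had the largest share of nuclear counts in LAP+ cells, at 12.5%, 10.01%, 10.2% and 11.0% in libraries 1 to 4. LAP+/OC2+ libraries held 1.63%, 1.28%, 0.781% and 0.410%, all far under every LAP+ library. Its log2 difference was -3.86 (SE 0.35, edgeR adjusted p = 7.6e-08). LAP+/OC2- and adult cells kept it at 10.5% and 11.7%.

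Its neighbour on chromosome 14, from 19141755 to 19159923 and also with 15 exons, separated fetal from adult cells. Its share was 4.58%, 6.60%, 4.29% and 4.52% in LAP+ cells and 0.612%, 0.448%, 0.289% and 0.203% in LAP+/OC2+ cells. The log2 difference was -4.11 (SE 0.30, edgeR adjusted p = 6.5e-09). In LAP+/OC2- cells it held 4.61%, and in adult cells only 0.038%. Both features, the one shared with adult cells and the one nearly lacking there, were therefore low in the LAP+/OC2+ libraries. In the RefSeq table, on its own assembly GRCr8, albumin, alpha-fetoprotein and afamin all lie on chromosome 14, but no deposited feature was matched to any of them.

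A 24-exon feature on chromosome 8, from 111673547 to 111721333, had the next largest fall in share. It held 4.85%, 3.34%, 4.40% and 4.60% of LAP+ nuclear counts and 1.05%, 0.996%, 0.585% and 0.328% of LAP+/OC2+ counts. The log2 difference was -2.98 (SE 0.33, edgeR adjusted p = 6.6e-07), and adult cells stood at 4.13%. Without LAP+/OC2+ libraries 1 and 2, the log2 differences of the feature at 19176277, its neighbour and this one were -4.64, -4.76 and -3.68. These 3 features jointly took 20.2% ± 1.28 of the LAP+ and 2.15% ± 1.05 of the LAP+/OC2+ nuclear counts (SD, n = 4 each).

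The largest rises in share belonged to 2 features on chromosome 10 with near-equal exon lengths (557 and 556 nt, 3 exons each). They lie at 15589364 to 15590220 and at 15602794 to 15603649. Since near-identical copies can share reads, the split of counts between them is uncertain. The one with the larger share stood at 3.26%, 3.17%, 5.81% and 7.07% in LAP+/OC2+ libraries and at 0.405%, 1.18%, 1.99% and 0.874% in LAP+ libraries. It was the most abundant nuclear feature of LAP+/OC2+ cells, with a log2 difference of 1.69 (SE 0.40, edgeR adjusted p = 0.0013). The other stood at 2.501%, 3.25%, 6.44% and 6.47% against 0.276%, 0.715%, 1.23% and 0.528% (log2 2.34, SE 0.41, edgeR adjusted p = 9.8e-05).

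Both chromosome 10 features were frequent in every fetal sort and rare in adult cells. LAP+/OC2- cells held 2.57% and 1.58%, above the LAP+ means of 1.11% and 0.687%, and adult cells held 0.024% and 0.016%. The 2 LAP+/OC2+ libraries with the lower mitochondrial shares, libraries 3 and 4, had the higher levels. A nearby feature at 15577249 to 15577977 stood at 4.40, 5.52, 15.1 and 16.8 CPM in LAP+/OC2+ against 0.206, 0.725, 1.29 and 0.831 CPM in LAP+ cells (log2 3.81, edgeR adjusted p = 7.8e-06). Its other neighbours did not all rise as much. The feature starting at 15600220 had a log2 difference of 0.92 (edgeR adjusted p = 0.028), or 0.80 without LAP+ library 4 (edgeR adjusted p = 0.075). For the one starting at 15620871 it was 1.86 (edgeR adjusted p = 1.2e-07). The one starting at 15609358 was lower, at -1.14 (edgeR adjusted p = 0.048). The RefSeq table places 3 alpha-globin symbols on chromosome 10 of GRCr8, and none was matched to a deposited feature.

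The feature with the next largest rise lies on chromosome 16, from 75497832 to 75530517. It held 1.10%, 2.32%, 1.38% and 0.929% of nuclear counts in LAP+/OC2+ libraries. LAP+ libraries 1 to 3 held 0.0045%, 0.0052% and 0.0030%, and LAP+ library 4 held 0.109%. The groups did not overlap, but library 4 was well above the other LAP+ libraries. The log2 difference was 5.13 (SE 1.17, edgeR adjusted p = 0.0013) and 8.02 without LAP+ library 4. Its share in LAP+/OC2- cells was 0.0015% and in adult cells 7.1e-04%.

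**Figure D3:**
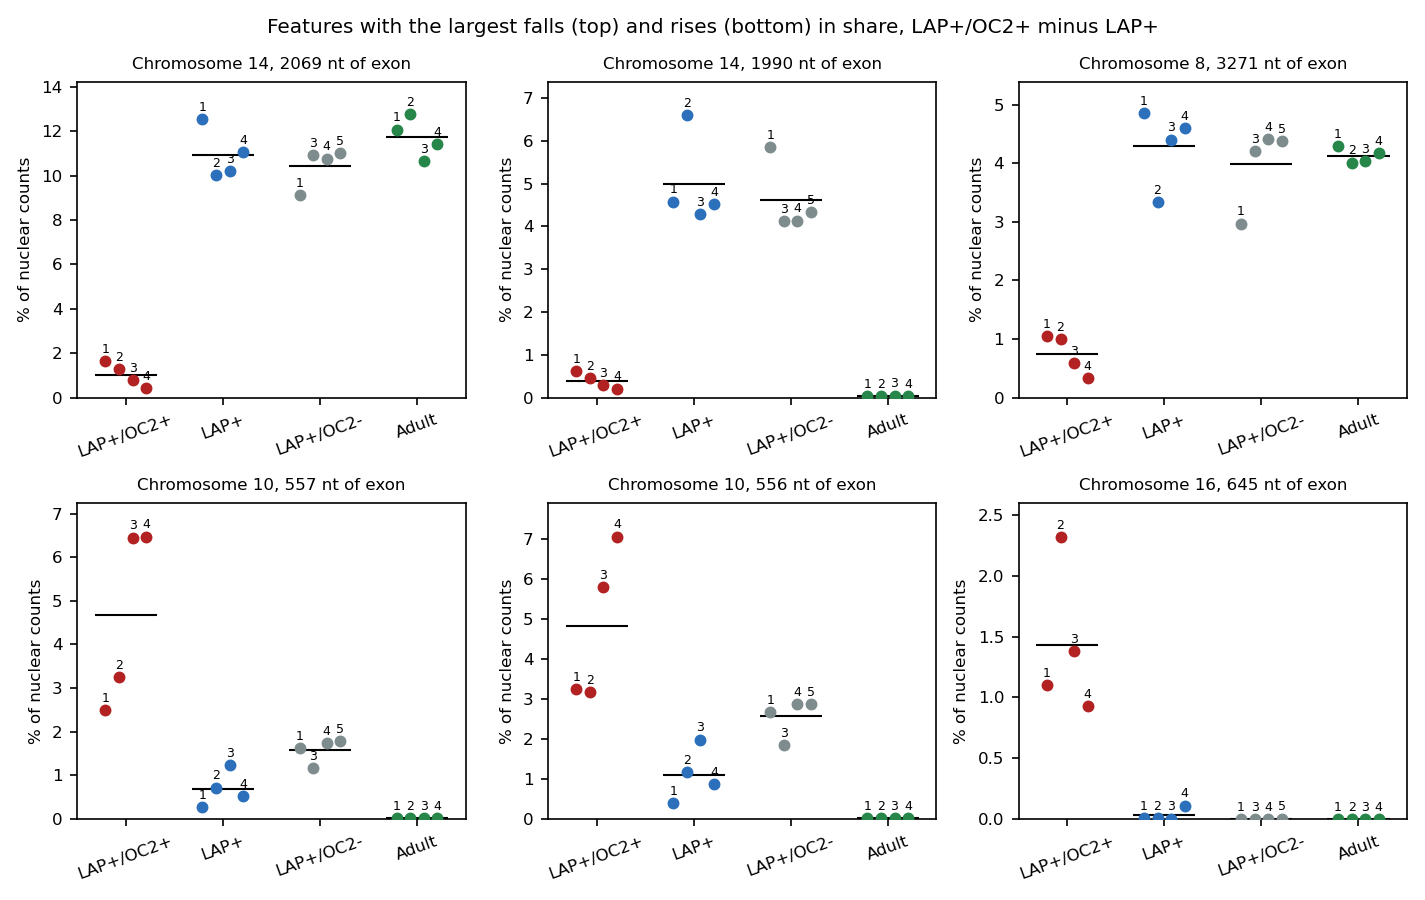
Share of nuclear counts (percent, linear axes from 0) of the 6 features with the largest differences in share, with 1 numbered point per library and lines at group means. Features on chromosomes 14 and 8 are low in LAP+/OC2+ libraries, those on chromosomes 10 and 16 are high, and LAP+ library 4 stands above the other LAP+ libraries for the chromosome 16 feature.

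In summed level, LAP+ library 4 carried more of what was high in LAP+/OC2+ cells than the other LAP+ libraries did, though not in every such feature. At 75414786 to 75481115 on chromosome 16, LAP+/OC2+ libraries stood at 1772, 2125, 1850 and 1347 CPM. LAP+ libraries 1 to 3 stood at 16.7, 18.4 and 16.9 CPM and library 4 at 1262 CPM. The feature was not called (log2 2.43, SE 1.21, edgeR adjusted p = 0.089), although DESeq2 (adjusted p = 0.033) and limma-voom (adjusted p = 0.015) called it. Without library 4 its log2 difference was 6.68. A 2-exon feature within the larger locus, at 75517505 to 75518336, stood at 53.5, 56.2, 54.1 and 48.0 CPM against 0.618, 0.906, 0.716 and 66.7 CPM. Here LAP+ library 4 lay above all 4 LAP+/OC2+ libraries.

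Across the 331 features at least 8-fold higher with at least 10 CPM in LAP+/OC2+ cells and no more than 10 times that level in adult cells, levels summed to 4705, 4268, 4723 and 10233 CPM in LAP+ libraries 1 to 4. The LAP+/OC2+ sum was 89256 ± 24960 CPM (SD, n = 4). Library 4 thus stood at 2.24 times the mean of the other LAP+ libraries. Feature by feature, it was the highest LAP+ library in 131 of the 331, and libraries 1 to 3 were highest in 75, 55 and 70. All 331 were still called higher without it. Leaving it out added 14 features that were at least 8-fold higher with at least 10 CPM, while leaving out any other of the 8 libraries added 0 of that kind.

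Among features reaching 10 CPM in whichever group was higher, falls were the more numerous at 4-fold, with 883 higher and 1077 lower, and counts were close at 8-fold, with 340 and 351. Beyond that, rises were more numerous, with 119 higher and 31 lower at 16-fold and 48 and 0 at 32-fold. Without the level requirement, 129 features were higher and 26 lower by at least 32-fold. Those 26 had at most 4.52 CPM in LAP+ cells, and 24 of them had no count in any LAP+/OC2+ library, where 3 counts correspond to 0.595 to 1.56 CPM. Their fitted sizes depend on the prior count of the fit and are no measure of a fold. The lower nuclear depth of LAP+/OC2+ libraries thus limits how large a fall can be seen.

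Under the rule for named features, 12 were taken in each direction from 5893 candidates, 2775 higher and 3118 lower, whose groups did not overlap and whose higher group had at least 10 CPM. The 12 rises ran from 6.98 to 10.24 on the log2 scale, and in all 12 the LAP+ mean was under 1 CPM. They fell into 2 kinds by their adult level. For 5 of them adult cells stood at more than 10 times the LAP+/OC2+ level, and the other 7 were under 1 CPM in both adult and LAP+/OC2- cells.

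The largest rise, ENSRNOG00000045799 on chromosome 8 (41657566 to 41661238, 4 exons), was of the first kind. It stood at 51.3, 18.8, 39.4 and 26.0 CPM in LAP+/OC2+ libraries, while LAP+ library 1 had 1 count (0.069 CPM) and the other LAP+ libraries had none. The ratio of pooled nuclear counts, without TMM scaling, was 2563, with a 95% counting interval of 458 to 101411. Its fitted log2 difference was 10.24 (SE 0.70, edgeR adjusted p = 3.1e-09), 11.54 without LAP+ library 1 and 7.63 at equal nuclear depth. LAP+/OC2- cells had 47.6 CPM and adult cells 6769 CPM. The LAP+/OC2+ level was thus far nearer to 0 than to the adult level.

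ENSRNOG00000050232, also on chromosome 8 (37702231 to 37705044, 2 exons), followed. It stood at 23.5, 6.82, 14.2 and 8.26 CPM in LAP+/OC2+ libraries and had no count in any LAP+ library. Set against 3 counts per LAP+ library on the same TMM-scaled CPM, it was at least 65.2-fold higher (edgeR adjusted p = 3.5e-07). LAP+/OC2- cells had 15.8 CPM and adult cells 2217 CPM.

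Features with an adult level more than 10 times that of LAP+/OC2+ cells formed a wider class. Of those called higher, 71 belonged to it, and their levels summed to 460 ± 124 CPM in the LAP+/OC2+ sort, 69.2 ± 11.0 in LAP+ and 497 ± 119 in LAP+/OC2- (SD, n = 4 for each sort), against 61066 CPM in adult cells. The median level was 0.768% of the adult level in LAP+/OC2+, 0.825% in LAP+/OC2- and 0.108% in LAP+ cells. These features were taken from those called higher than in LAP+ cells, so the low LAP+ level is set by that choice and the values are a description. Without every feature of such an adult level, an alternative chosen after the data were seen, 4633 features were called higher and 4057 lower.

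Within this class the LAP+/OC2+ libraries varied as the adult libraries of the same number did, a pattern looked at after the values were seen. A feature on chromosome 5 (77405142 to 77903113, 12 exons) stood at 3381, 16.9, 4100 and 3066 CPM in adult libraries 1 to 4 and at 26.4, 0.325, 19.5 and 9.76 CPM in LAP+/OC2+ libraries 1 to 4. Library 2 was the low one in both groups. Its LAP+/OC2+ value was below the level of 3 counts in that library, 1.29 CPM before TMM scaling. edgeR called this feature higher than in LAP+ cells (log2 8.95, adjusted p = 8.3e-04), but limma-voom did not (adjusted p = 0.13). A feature on chromosome 1 (147422779 to 147435897, 3 exons) was high in library 2 of both, at 1034, 4456, 758 and 820 CPM in adult and 6.23, 39.3, 4.82 and 2.85 CPM in LAP+/OC2+ cells. In LAP+/OC2- libraries 1, 3, 4 and 5 the same feature ranged from 9.45 to 18.4 CPM, but that group has no library 2 to compare.

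Over 38 features of this class with at least 100 CPM in adult cells and under 1 CPM in LAP+ cells, deviations from the group mean (log2 of CPM + 0.1) were correlated across features. Each LAP+/OC2+ library correlated highest with the adult library of its own number, at r = 0.66, 0.92, 0.83 and 0.78 for libraries 1 to 4. LAP+/OC2- libraries reached r from -0.27 to 0.32 with any adult library. Adult libraries 1, 3 and 4 were alike in this respect: LAP+/OC2+ libraries 1, 3 and 4 reached r from 0.51 to 0.83 with each of them. The match is thus mainly one of library 2 against the rest. The LAP+/OC2- group has no library 2, so its low r cannot show whether such a match is absent there. Adult library 2 also held 3.8e-04% of nuclear counts on chromosome Y, against 0.0123%, 0.0128% and 0.0145% in adult libraries 1, 3 and 4. LAP+/OC2+ libraries 1 to 4 held 0.0145%, 0.0068%, 0.0113% and 0.0109%. Whether this difference has a part in the pattern was not tested. Features are not independent points, and the labels do not say what equal numbers share. Whether RNA or reads passed between libraries was not tested.

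The other kind of rise was restricted to LAP+/OC2+ cells among the sorts from before transplantation. A 1-exon feature on chromosome 13 (78725209 to 78726317) stood at 48.0, 34.1, 23.7 and 22.4 CPM in LAP+/OC2+ libraries and at 0.275, 0, 0.072 and 0 CPM in LAP+ libraries. It had 0.080 CPM in LAP+/OC2- cells and no count in adult cells (log2 8.38, SE 0.60, edgeR adjusted p = 3.2e-08). A feature of 84 nt on chromosome 8 (79679458 to 79679541) stood at 46.2, 41.9, 23.4 and 11.1 CPM against 0.137, 0.181, 0 and 0.069 CPM (log2 8.08, SE 0.62, edgeR adjusted p = 6.9e-08). The first had a log2 difference of 9.89 without LAP+ library 1 and 6.84 at equal nuclear depth, and the second 7.27 without LAP+/OC2+ libraries 1 and 2. In both, libraries 1 and 2 were highest, the libraries with the largest mitochondrial shares.

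In all, 43 features had at least 10 CPM in LAP+/OC2+ cells and under 1 CPM in each of the LAP+, LAP+/OC2- and adult groups. Their levels summed to 820, 1100, 714 and 591 CPM in LAP+/OC2+ libraries and to 19.8, 14.3, 14.8 and 29.6 CPM in LAP+ libraries. LAP+/OC2- cells summed to 14.5 CPM and adult cells to 7.14 CPM. Of the 43, 14 had 1 exon. In the other direction, 9 called features had at least 10 CPM in LAP+ and under 1 CPM in LAP+/OC2+ cells. They summed to 9.90, 7.47, 8.98 and 3.30 CPM in LAP+/OC2+ libraries and to 136, 117, 122 and 121 CPM in LAP+ libraries. This rule sets no limit on LAP+/OC2- or adult cells. Without that limit, 59 features had at least 10 CPM in LAP+/OC2+ and under 1 CPM in LAP+ cells. In LAP+/OC2+ libraries 3 counts correspond to 0.595 to 1.56 CPM before TMM scaling, so levels under 1 CPM there rest on few counts. All these classes were chosen on these values, which are given as a description.

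**Figure D4:**
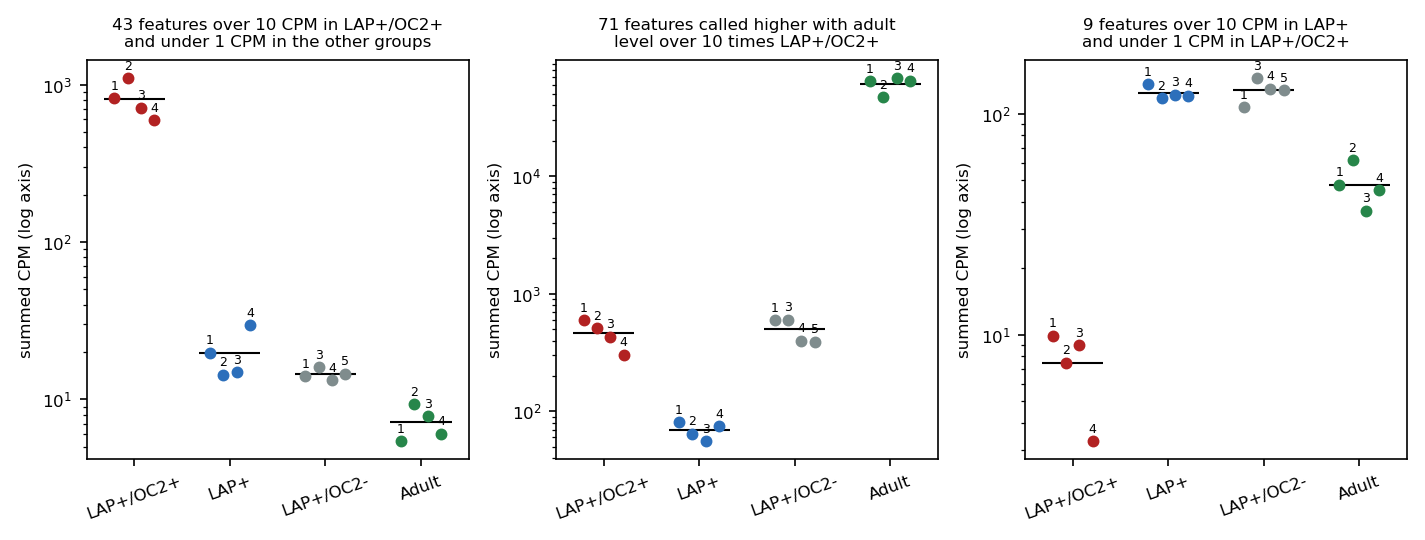
Summed level (CPM, log axis) of 3 feature classes in each library, with numbered points for libraries and lines at group means: the 43 features restricted to LAP+/OC2+ cells, the 71 called higher with adult levels more than 10 times as high, and the 9 near silent in LAP+/OC2+ cells. The 71 sum to like levels in both OC2 sorts, and the 9 sum to 3.30 to 9.90 CPM in LAP+/OC2+ against 117 to 136 CPM in LAP+ libraries.

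The 12 largest falls under the rule ran from -4.95 to -4.16 on the log2 scale. In all 12 the LAP+/OC2- mean lay within 2-fold of the LAP+ mean. That held for 99.2% of features lower by at least 2-fold and 94.8% of all tested, so it does not set the 12 apart. ENSRNOG00000046365 on chromosome 20 (29009330 to 29029905, 10 exons) stood at 2.93, 2.60, 1.53 and 0.601 CPM in LAP+/OC2+ libraries. LAP+ libraries had 70.4, 69.6, 30.9 and 37.7 CPM, and every one was above every LAP+/OC2+ library. Its log2 difference was -4.95 (SE 0.53, edgeR adjusted p = 5.5e-07), or -5.71 without LAP+/OC2+ libraries 1 and 2, and adult cells had 29.3 CPM.

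ENSRNOG00000059277 on chromosome 6 (133795080 to 133795160) is a 1-exon feature of 81 nt. It stood at 1.10, 0.325, 0.657 and 0.751 CPM in LAP+/OC2+ libraries and at 20.3, 22.1, 18.6 and 20.3 CPM in LAP+ libraries (log2 -4.83, SE 0.38, edgeR adjusted p = 1.4e-08). LAP+/OC2- cells had 18.4 CPM and adult cells 0.253 CPM, so among the groups from before transplantation this short feature was high in the other fetal sorts only.

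The 2 most abundant of the 12 falls had similar means in LAP+, LAP+/OC2- and adult cells. One on chromosome 2 (114413410 to 114445395, 12 exons) stood at 29.7, 23.1, 18.6 and 10.1 CPM in LAP+/OC2+ libraries against 345, 336, 375 and 375 CPM in LAP+ libraries. Its mean was 355 CPM in LAP+/OC2- and 372 CPM in adult cells (log2 -4.16, SE 0.26, edgeR adjusted p = 1.2e-09). One on chromosome 7 (14429701 to 14435967, 3 exons) stood at 17.96, 11.0, 10.3 and 7.51 CPM against 232, 347, 215 and 235 CPM. LAP+/OC2- cells had 251 CPM and adult cells 202 CPM (log2 -4.50, SE 0.25, edgeR adjusted p = 4.1e-10). In these 3 features with more than 1 exon LAP+/OC2+ library 1 was the highest of its group and library 4 the lowest.

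Called features lay beside each other along the chromosomes. Runs of at least 4 tested neighbours that all changed 1 way by at least 2-fold, with gaps of at most 500000 nt, numbered 63 for rises (313 features) and 85 for falls (392 features). Whether this is more than chance placement would give was not tested.

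The longest run of rises lay on chromosome 17, from 44527421 to 44841382, and held 19 features, 16 of them with 1 exon. Its summed level was 78.4, 98.1, 116 and 93.1 CPM in LAP+/OC2+ libraries and 12.8, 21.2, 18.3 and 13.3 CPM in LAP+ libraries, with a median log2 difference of 2.53. A run of 13 features at 43734461 to 43948223 summed to 95.7, 132, 177 and 172 CPM against 32.3, 47.1, 63.0 and 41.9 CPM. A run of 6 features, all with 1 exon, lay at 43617247 to 43634085 and summed to 39.9 ± 11.0 against 7.33 ± 2.63 CPM (SD, n = 4 each).

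Over the whole window of these 3 runs, 43617247 to 44841382 on chromosome 17, 42 of 47 tested features were higher and 3 lower. The runs were chosen because their 38 features all rose, so this count is a description. Of the 9 features outside the runs, 4 were higher and 3 lower, near the 32.8% higher and 34.7% lower of all tested features. Adult levels were lower than LAP+ levels in each of these runs, at 5.80 against 16.4 CPM in the longest. Replication-dependent histone genes are known for having 1 exon and for lying in a large cluster, and their mRNA is made as cells copy their DNA. The RefSeq table places 19 of 29 histone symbols on chromosome 17 of GRCr8, but none was matched to a deposited feature.

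Other runs of rises held features with several exons. On chromosome 7, from 140448465 to 140609067, 6 neighbours rose with a median log2 difference of 3.05, summing to 319, 338, 450 and 478 CPM in LAP+/OC2+ libraries and 95.6, 133, 129 and 109 CPM in LAP+ libraries. LAP+/OC2- cells summed to 122.7 CPM there. On chromosome 10, from 13815293 to 13962008, 7 neighbours summed to 615 ± 36.2 against 168 ± 24.8 CPM (SD, n = 4 each). On chromosome 19, from 37266783 to 37438488, 7 neighbours summed to 178 ± 49.8 against 63.3 ± 10.5 CPM (SD, n = 4 each), and adult cells to 67.1 CPM.

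The longest run of falls consisted of 11 short 1-exon features (81 to 95 nt) on chromosome 6, from 133781675 to 133793371. They summed to 5.13, 4.55, 2.85 and 2.70 CPM in LAP+/OC2+ libraries and to 41.5, 39.5, 37.4 and 34.3 CPM in LAP+ libraries. Just before it, from 133552821 to 133770779, a run of 8 features summed to 491, 497, 256 and 551 CPM against 1956, 2577, 1694 and 1719 CPM. Over both, 22 of 24 tested features were lower and 0 higher (median -2.87). Of these, 19 belong to the runs, which were chosen because all their features fell, and of the other 5, 3 were lower. Over all tested features, 34.7% were lower and 32.8% higher. Adult cells summed to 0.351 and 19.0 CPM in these runs, so this region, like the feature at 19141755 on chromosome 14, is one that LAP+ fetal cells hold far above adult cells.

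A further run on chromosome 6, from 127500016 to 127772420, was abundant in adult cells too. Its 7 features summed to 2436, 1981, 973 and 501 CPM in LAP+/OC2+ libraries and to 18168, 10220, 19598 and 18267 CPM in LAP+ libraries, where library 2 was low. The median log2 difference was -3.42, and adult cells summed to 18338 CPM. On chromosome 1, from 80549043 to 80666585, 7 features summed to 1863, 1694, 1158 and 719 CPM against 10648, 6814, 8467 and 8023 CPM, and adult cells to 36405 CPM. On chromosome 16, from 49543142 to 50501921, 8 features summed to 76.8 ± 30.9 against 557 ± 63.4 CPM (SD, n = 4 each), and on chromosome X, from 106390759 to 106825014, 7 features to 124 ± 11.7 against 457 ± 12.05 CPM (SD, n = 4 each).

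**Figure D5:**
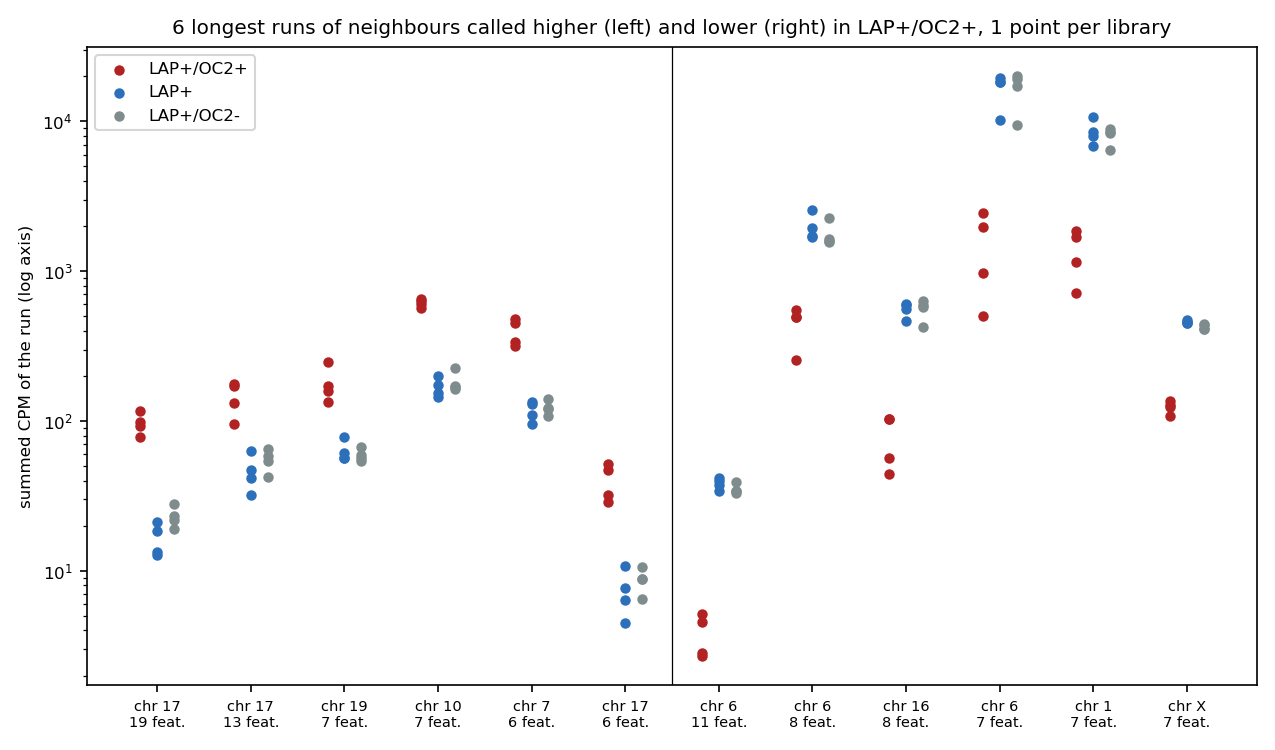
Summed level (CPM, log axis) of the 6 longest runs of rises (left) and the 6 longest runs of falls (right), with 1 point per LAP+/OC2+, LAP+ and LAP+/OC2- library. The runs on chromosome 17 lie higher in LAP+/OC2+ libraries, and the run of 11 short features on chromosome 6 lies at 2.70 to 5.13 CPM against 34.3 to 41.5 CPM in LAP+ libraries.

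Short features as a class did not follow the chromosome 6 runs. Of 230 tested features under 200 nt, 92 (40%) were higher and 57 (24.8%) lower (median 0.32), although the summed share of this class fell. Of all tested features, 32.8% were higher and 34.7% lower. Of 639 1-exon features of at least 200 nt, 256 (40.1%) were higher and 169 (26.4%) lower (median 0.25). Some short and 1-exon features could pass the low-count filter only through the LAP+/OC2+ libraries, so the counts of both classes are a description. Of 1589 with exons summing to over 5000 nt, 594 (37.4%) were higher and 466 (29.3%) lower (median 0.18), nearer the shares of all tested features. Chromosome medians ran from -0.29 on X to 0.19 on chromosome 19, leaving out the 7 tested features on Y, of which 0 were called. On X, 129 (29.6%) were higher and 153 (35.1%) lower of 436. On chromosome 19, 161 (38.2%) were higher and 130 (30.9%) lower of 421.

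The LAP+/OC2+ libraries differed more among themselves than the LAP+ libraries did. Over 8773 features of at least 10 CPM, the median SD of log2(CPM + 1) was 0.330 in LAP+/OC2+ and 0.206 in LAP+ cells. Their nuclear depth was lower, and its part in this spread was not tested. Ranked by mitochondrial share, the 4 LAP+/OC2+ libraries stood in the same order for the share of adult features, of 1-exon features and of short features and for the number of detected features, with library 1 highest and library 4 lowest. The share of the 20 most abundant features did not follow it, at 16.9%, 19.5%, 21.8% and 21.2% in libraries 1 to 4. With 4 libraries this order is a description only.

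The level of the changed features in the reference groups differed by direction. The 3533 features lower by at least 2-fold had median levels of 5.53 CPM in LAP+/OC2+, 20.6 in LAP+, 20.3 in LAP+/OC2- and 25.3 in adult cells. The 3473 higher features had medians of 22.3, 5.62, 4.73 and 3.34 CPM in the same order. Adult cells held at least 10 CPM of 67.1% of the lower and 34.1% of the higher features, against 53.5% of all tested. The LAP+/OC2+ and LAP+ medians are set by the choice of these features. Of the 3473 higher ones, 990 were under 1 CPM in LAP+/OC2- cells. Many of those could pass the low-count filter only through the LAP+/OC2+ libraries, so low reference levels are partly set by the filter. These values are a description.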

How the data were processed

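The authors deposited raw counts per feature with exon coordinates and lengths, per the file headers. The submitters' processing notes list STAR 2.5.2b, Trimmomatic 0.36, bcl2fastq 2.17, and featureCounts with Subread 1.5.2. No source used here gives the build, annotation release or strand setting, so overlapping or antisense features cannot be told apart. Mitochondrial features were removed before library sizes were computed.

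The 16 libraries from before transplantation were fitted together with edgeR 4.0.16 in R 4.3.3 (filterByExpr, TMM scaling, robust quasi-likelihood F test, Benjamini-Hochberg adjusted p under 0.05), without a replicate block. CPM values use TMM-scaled nuclear totals, and shares use unscaled ones. Library measures were tested by exact permutation in scipy 1.17.1. Named features were called, had groups that did not overlap, and reached 10 CPM in the higher one. The 12 largest log2 differences per direction were taken, plus the most abundant feature of each group and the 3 largest differences in share per direction. The design's marker and pathway lists need symbols and could not be applied. The edgeR steps were also run on simulated counts in which few features changed. Most features differ here, so that run cannot show how the scaling behaves in these data. Members and lists were chosen with earlier results of these data known. Alternatives were RLE scaling, other filters, DESeq2 1.42.0, limma-voom (limma 3.58.1), a fit of the 8 libraries, mitochondrial features kept, thinning and leaving out libraries. Counts of all 12 within-group pairs differed by more than sampling noise (chi-square over degrees of freedom 7.05 to 82.0).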

Additional observations from a re-analysis of the deposited data

Results flagged for a closer look

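In 11 of the 82 groups of 4 values examined, 1 library lay far from the other 3. The rule flags about 1 in 20 groups of independent, normally distributed values. These groups are neither, and a group with counts in only 1 library is always flagged, so 11 of 82 cannot be set against that rate. LAP+ library 3 had 14107 detected features at equal depth, against 14421 to 14470 in the others. LAP+ library 1 had 0.0686 CPM of ENSRNOG00000045799, 1 count, where the others had none, and library 4 had 0.0692 CPM of the chromosome 5 feature at 77405142 to 77903113, where the others likewise had none. LAP+ library 2 held 6.60% of its nuclear counts in the chromosome 14 feature at 19141755 to 19159923, against 4.29% to 4.58%, and 10220 CPM in the chromosome 6 run from 127500016 to 127772420, against 18168 to 19598 CPM. It had 347 CPM of the chromosome 7 feature at 14429701 to 14435967, against 215 to 235 CPM. LAP+ library 4 held 0.109% in the chromosome 16 feature at 75497832 to 75530517, against 0.0030% to 0.0052%. It also had 1262 CPM at 75414786 to 75481115 (others 16.7 to 18.4 CPM), 66.7 CPM at 75517505 to 75518336 (others 0.618 to 0.906 CPM), and 10233 CPM summed over the 331 features at least 8-fold higher in LAP+/OC2+ cells (others 4268 to 4723 CPM). In LAP+/OC2+ cells, library 2 had 39.3 CPM of the chromosome 1 feature at 147422779 to 147435897, against 2.85 to 6.23 CPM. Several of these values share a library and a locus, and so are not separate cases. The mitochondrial counts, which the comparison of nuclear features leaves out, stood at a mean of 62.2% of all counts in LAP+/OC2+ libraries, against 4.11% to 6.42% in LAP+ libraries.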

How the results depend on the processing

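The counts of features called higher and lower, overall and at 2-fold, stayed within 1.5 times of the reported ones in every alternative run, and 0 calls turned direction. Higher and lower calls were 5187 and 4661 with DESeq2, 4957 and 4997 with limma-voom, 5213 and 5316 without a low-count filter, 4764 and 4625 with a stricter one, 4199 and 4284 in the fit of the 8 libraries alone, 4387 and 4956 with mitochondrial features kept, and 3720 and 3522 at equal nuclear depth. Which direction had more calls therefore changed with the setting. Leaving out 1 library gave 4417 to 4823 higher and 4653 to 5054 lower. With the replicate number as a block, the 8 libraries gave 3985 higher and 3988 lower. Same-numbered libraries deviated together in 2 of 4 pairs (r from -0.23 to 0.20), and 2 of 8 libraries correlated best with their own number, so the numbers were not taken to pair the samples. For the chromosome 16 features at 75497832 and 75414786, that block gave log2 differences of 7.20 and 5.85, and limma-voom 6.13 and 4.20.

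With 1 library left out, 3 against 4 libraries cannot go below an exact permutation p of 0.057. The differences in share then ran from -17.4 to -15.6 percentage points for the 20 most abundant features, from -28.7 to -26.0 for the adult features, from -0.230 to -0.195 for short features and from 0.875 to 1.06 for 1-exon features. The difference in detected features ran from 1635 to 2305. The nuclear depth of the LAP+/OC2+ libraries puts 3 counts at 0.595 to 1.56 CPM, against 0.201 to 0.208 CPM in LAP+ libraries, so falls of features below a few CPM are poorly sized. Such limits and the counting intervals cover counting error only.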
